A study of Mus musculus with 9 samples.

Results

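The genes described here are the guidance ligands and receptors of mouse: the semaphorins of classes 3 to 7 with their plexin and neuropilin receptors, the ephrins with their Eph receptors, and the Slits with their Robo receptors. They were chosen by symbol, from probe sets that the array's platform annotation gives exactly 1 gene. This gave 60 genes with 1723 probe sets, out of 22264 symbols with 316997 such probe sets. Expression was measured in C2C12, an established mouse myoblast line, on 9 whole-transcript exon arrays. The cells had been given control siRNA, Cugbp1 siRNA or Mbnl1 siRNA for 48 h, with 3 arrays in each group. All groups carried an siRNA and were grown in the same medium with serum, and no array without siRNA was analysed here. Celf1 is the current symbol of Cugbp1. Both targets code for proteins that bind RNA and act on splicing and on mRNA stability. The labels do not say that replicates were separate cultures, so p-values measure the spread between arrays and no more, and that spread may be technical.

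Guidance cues tell a moving cell or a growing axon where to go. Semaphorins bind plexins, and most class 3 members do so through a neuropilin. Ephrins are held at the membrane and bind Eph receptor kinases on the neighbouring cell, while Slits are secreted and bind Robo receptors. The receptors act on small GTPases and so on the cytoskeleton, and in muscle they are known for their part in myoblast migration and in the meeting of motor axons with muscle.

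Probe sets entered when their average over the 9 arrays was at least an intensity of 128, which is the 75th percentile, and genes with 3 or more such probe sets were tested. This kept 927 of the 1723 guidance probe sets and left 57 of the 60 genes. Efna2 and Epha3 had 2 kept probe sets each. Nrp2 had 1 probe set with a single symbol, and its log2 intensities were 5.84, 5.84 and 6.23 on the control arrays, 6.11, 6.28 and 6.78 after Cugbp1 siRNA, and 6.53, 5.55 and 6.72 after Mbnl1 siRNA. A gene value is a robust summary (median polish) of the kept probe sets on the log2 scale, so its level cannot be compared between genes.

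The targeted genes fell where the labels say they should. Celf1 fell by 1.46 on the log2 scale after Cugbp1 siRNA (SE 0.06) and Mbnl1 fell by 1.35 after Mbnl1 siRNA (SE 0.05, n = 3 per group). Of 10 myoblast markers 9 were tested, and all probe sets of Myod1 and Myf5 passed the filter. Myf6 had 0 of 5 probe sets above it. The median intensity of an array was 42.3 to 42.9 after either siRNA against 43.6 to 43.8 for controls, and on the first principal component, with 54.2% of the variance, the controls stood apart from both siRNA groups. The part of this difference in the results below was not tested.

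After Cugbp1 siRNA, 28 of the 57 guidance genes passed the test (limma with Benjamini-Hochberg adjustment over 12646 genes, adjusted p under 0.05), 13 higher and 15 lower. This is 49.1% of them, against 38.7% of all genes tested (26.0% higher and 12.7% lower). After Mbnl1 siRNA 31 passed, 18 higher and 13 lower, which is 54.4% against 41.5% of all genes (26.9% higher and 14.6% lower). The median log2 change of the guidance genes was -0.04 and -0.01, and that of all genes 0.05 and 0.04. The siRNA and control arrays did not overlap for 34 guidance genes after Cugbp1 siRNA and for 37 after Mbnl1 siRNA, where all genes gave 48.8% and 57.5%. Both comparisons use the same 3 control arrays. In a bulk sample, fewer cells of a type and less RNA per cell cannot be told apart.

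**Figure D1:**
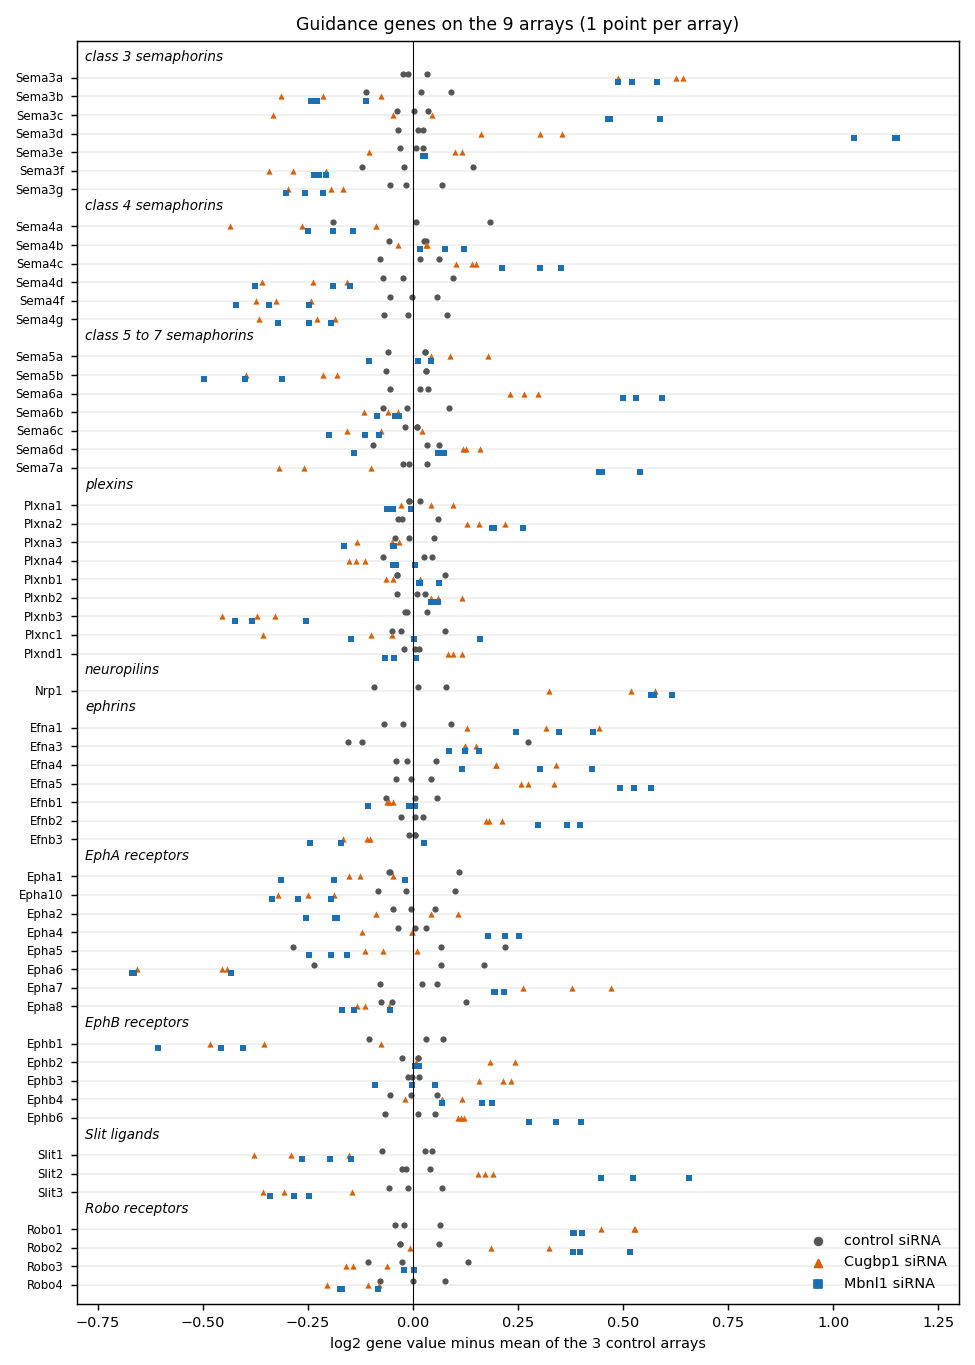
Each point is 1 array: its log2 gene value minus the mean of the 3 control arrays, for the 57 tested guidance genes by family (circles control siRNA, triangles Cugbp1 siRNA, squares Mbnl1 siRNA; 3 arrays each). Sema3d after Mbnl1 siRNA lies farthest from the controls, and the squares of Sema7a lie above them while the triangles lie below.

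The split into rises and falls depended on how arrays were scaled. The deposited scale gave 13 higher and 15 lower after Cugbp1 siRNA. Centring arrays on the median of all probe sets gave 17 and 13, and centring them on the median of the gene values gave 8 and 24. All 12646 genes moved the same way, from 3293 higher and 1600 lower to 4398 and 1230 and to 1679 and 2839 in that order. After Mbnl1 siRNA the deposited scale gave 18 and 13, and centring on gene values gave 17 and 23, while all genes went from 3397 and 1848 to 2201 and 3200. These scalings put the median of all genes between -0.03 and 0.09 in both comparisons.

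Between the siRNAs, 11 guidance genes differed, 19.3% of the 57, against 9.34% of all genes (4.27% higher after Cugbp1 siRNA and 5.07% lower). Of these, 9 were higher after Mbnl1 siRNA (Sema3c, Sema3d, Sema6a, Sema7a, Slit2, Efna5, Efnb2, Epha4 and Ephb6) and 2 after Cugbp1 siRNA (Epha2 and Ephb3). The arrays of both siRNAs did not overlap for 20 guidance genes, where all genes gave 29.5%. The count of 11 fell to 7 without Cugbp1 siRNA replicate 2, to 7 without Mbnl1 siRNA replicate 3, and to 7 with no filter on weak probe sets. Without the filter Epha2, Epha4, Ephb3, Ephb6 and Efnb2 were lost and Ephb2 was gained. Sema3c, Sema3d, Sema6a, Sema7a, Slit2 and Efna5 passed in each of the 21 other settings that recorded single genes.

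Sema3d and Sema3c, ligands of class 3, were among the 3 guidance genes with the largest differences between the siRNAs. Sema3d, a secreted semaphorin known from vessel and heart development, read 7.96, 7.94 and 7.90 on the control arrays (log2 gene value), 8.09, 8.24 and 8.29 after Cugbp1 siRNA, and 9.08, 9.08 and 8.98 after Mbnl1 siRNA. The 3 groups did not overlap, with Mbnl1 siRNA highest. Sema3d rose 2.17-fold after Mbnl1 siRNA (log2 change 1.12, SE 0.06, adjusted p = 3.19e-06) and 1.21-fold after Cugbp1 siRNA (0.27, SE 0.06, adjusted p = 0.00481). The siRNAs differed by -0.84 (Cugbp1 minus Mbnl1, 95% interval -0.97 to -0.72, adjusted p = 3.2e-05), and all 17 kept probe sets were higher after Mbnl1 siRNA.

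Sema3c, a secreted ligand of neuropilins known for guiding cells of the cardiac outflow tract, read 7.93, 7.97 and 8.01 on the controls, 7.64, 7.92 and 8.02 after Cugbp1 siRNA, and 8.56, 8.43 and 8.44 after Mbnl1 siRNA. Cugbp1 siRNA arrays overlapped the controls, and the Mbnl1 siRNA arrays lay above both. It rose by 0.51 after Mbnl1 siRNA (SE 0.08, adjusted p = 0.00134), while its value after Cugbp1 siRNA was -0.11 (adjusted p = 0.314). The siRNAs differed by -0.62 (-0.81 to -0.43, adjusted p = 0.00176), with all 20 kept probe sets higher after Mbnl1 siRNA.

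Sema7a is anchored to the membrane by a lipid and binds plexin C1 and integrins. It read 10.13, 10.17 and 10.11 on the controls, 10.04, 9.82 and 9.88 after Cugbp1 siRNA, and 10.58, 10.68 and 10.59 after Mbnl1 siRNA, so the controls lay between both siRNA groups. It fell by 0.23 after Cugbp1 siRNA (SE 0.06, adjusted p = 0.0138) and rose by 0.48 after Mbnl1 siRNA (SE 0.06, adjusted p = 0.000276). The fall did not pass without Cugbp1 siRNA replicate 2 (adjusted p = 0.0515). The siRNAs differed by -0.70 (-0.83 to -0.57, adjusted p = 9.24e-05), and all 15 probe sets were higher after Mbnl1 siRNA. Its receptor gene Plxnc1 had 3 of 36 probe sets kept and did not pass in any of these comparisons.

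These 3 semaphorins had the largest differences between the siRNAs, and the 250 bases before their RefSeq start (GRCm38.p6, + strand) show how unlike their promoters are. Capitals mark each E-box, CANNTG, the core that MYOD1 and other bHLH factors recognise.
Sema3d, chr5:12382916-12383165: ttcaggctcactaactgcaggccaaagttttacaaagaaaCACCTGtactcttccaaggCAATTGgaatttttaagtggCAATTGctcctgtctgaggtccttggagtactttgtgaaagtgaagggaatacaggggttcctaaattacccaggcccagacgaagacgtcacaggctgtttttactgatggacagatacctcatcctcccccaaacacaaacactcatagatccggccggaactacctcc
Sema3c, chr5:17574566-17574815: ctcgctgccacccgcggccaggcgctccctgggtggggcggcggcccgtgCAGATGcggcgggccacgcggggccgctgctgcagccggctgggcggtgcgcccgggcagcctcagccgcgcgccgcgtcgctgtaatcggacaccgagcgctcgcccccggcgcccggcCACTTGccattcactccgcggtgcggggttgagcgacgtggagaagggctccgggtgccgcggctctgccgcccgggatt
Sema7a, chr9:57939862-57940111: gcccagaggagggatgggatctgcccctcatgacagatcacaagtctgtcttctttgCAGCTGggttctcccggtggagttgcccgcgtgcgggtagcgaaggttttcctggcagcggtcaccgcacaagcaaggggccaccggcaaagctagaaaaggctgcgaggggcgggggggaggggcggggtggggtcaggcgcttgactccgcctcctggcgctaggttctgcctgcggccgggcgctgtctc
The Sema3d window holds 3 E-boxes and no GGGCGG, with 46.8% G and C. The Sema3c window holds 2 E-boxes and 3 GGGCGG (either strand), with 78.4% G and C. Sema7a has 1 E-box, which is a CAGCTG, and 2 GGGCGG, with 66.4%. Of 32851 promoter windows of this length, 66.2% hold CANNTG, 13.0% CAGCTG (a subset of CANNTG) and 32.7% GGGCGG on either strand. Of 69 windows from 53 guidance genes, 50.7% hold CANNTG, 15.9% CAGCTG and 71.0% GGGCGG. A match describes the letters and not a site that is used.

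Sema3a, the founding repellent of the class, rose after both siRNAs. It read 9.20, 9.15 and 9.14 on the controls, 9.65, 9.81 and 9.79 after Cugbp1 siRNA, and 9.65, 9.69 and 9.74 after Mbnl1 siRNA. All 6 siRNA arrays lay above the controls, and both siRNA groups overlapped. The changes were 0.59 (SE 0.05, adjusted p = 0.000104) and 0.53 (SE 0.05, adjusted p = 7.12e-05), and the siRNAs differed by 0.06 (-0.06 to 0.17). Nrp1, its co-receptor, read 8.79, 8.96 and 8.89 on the controls, 9.20, 9.40 and 9.46 after Cugbp1 siRNA, and 9.45, 9.50 and 9.44 after Mbnl1 siRNA. Here too the siRNA arrays lay above all controls. Nrp1 rose by 0.47 (SE 0.07, adjusted p = 0.000973) and by 0.59 (SE 0.07, adjusted p = 0.000217), and the siRNAs differed by -0.11 (-0.26 to 0.04).

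The other class 3 ligands were lower or did not pass. Sema3f, a secreted ligand of neuropilin 2, fell by 0.28 and 0.22 and Sema3g fell by 0.22 and 0.26, after Cugbp1 and Mbnl1 siRNA in that order. They had 7 of 26 and 5 of 27 probe sets kept, and Sema3g lost both calls without the filter. Sema3f after Mbnl1 siRNA did not pass without control siRNA replicate 1 or Mbnl1 siRNA replicate 1 or 3 (adjusted p = 0.0528 to 0.0644). Sema3b fell by 0.20 after Cugbp1 siRNA, but 7 of the 9 fits that left out 1 array lost the call (all but those without control siRNA replicate 3 or Cugbp1 siRNA replicate 3, adjusted p = 0.0543 to 0.151), and it was at -0.19 after Mbnl1 siRNA (adjusted p = 0.0527, and 0.0439 without the filter). Sema3e, which binds plexin D1 without a neuropilin, was at 0.04 (95% interval -0.09 to 0.17) and 0.03 (-0.10 to 0.16).

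**Figure D2:**
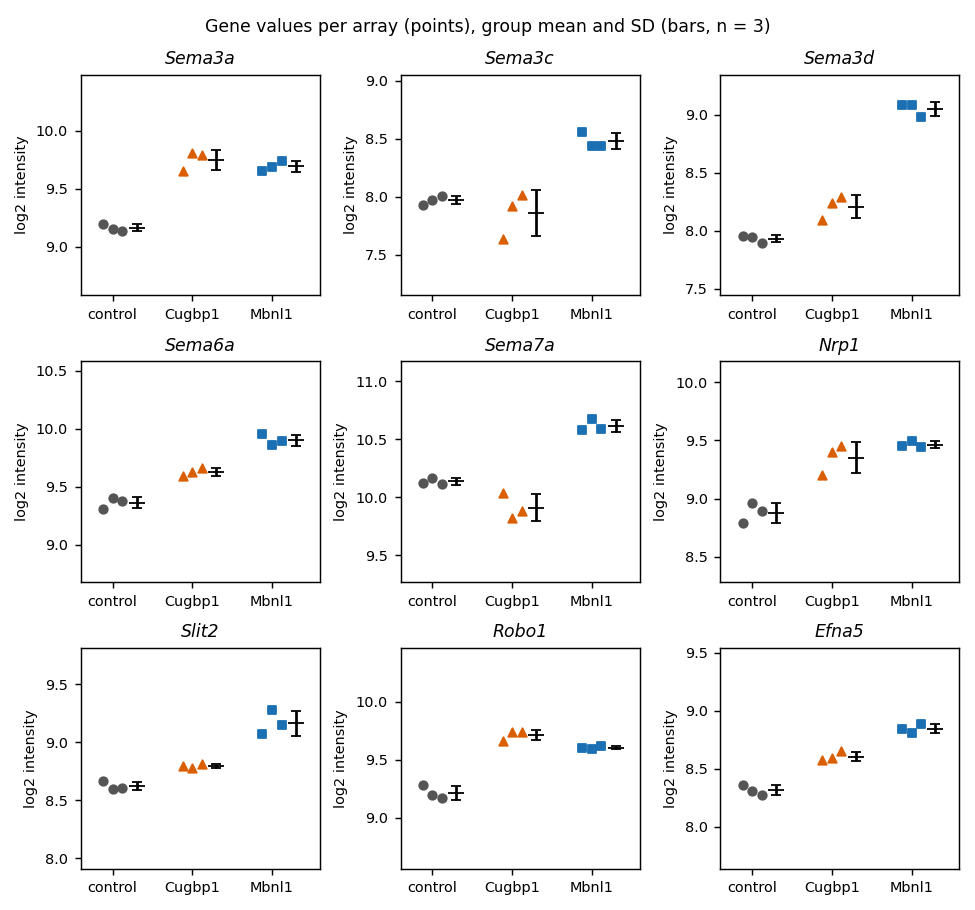
Log2 gene value on each array for 9 guidance genes (points), with the group mean and SD beside them (n = 3); the vertical span is equal in all panels. Sema3a, Nrp1 and Robo1 are above the controls after both siRNAs, Sema3c after Mbnl1 siRNA, and Sema7a lies on either side of the controls.

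Among the membrane-bound semaphorins, Sema6a rose after both siRNAs, more after Mbnl1 siRNA. This transmembrane ligand of A-type plexins read 9.31, 9.40 and 9.38 on the controls, 9.59, 9.63 and 9.66 after Cugbp1 siRNA, and 9.95, 9.86 and 9.89 after Mbnl1 siRNA. The 3 groups did not overlap. The changes were 0.26 (SE 0.04, adjusted p = 0.00203) and 0.54 (SE 0.04, adjusted p = 3.39e-05), with a difference of -0.28 (-0.38 to -0.18, adjusted p = 0.00459). Sema4c rose by 0.29 after Mbnl1 siRNA (adjusted p = 0.00199) and was at 0.13 after Cugbp1 siRNA (adjusted p = 0.0683), and the siRNAs differed by -0.16 (adjusted p = 0.091).

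Sema4d, Sema4f, Sema4g and Sema5b were lower after both siRNAs. Sema4f fell by 0.31 and 0.34, Sema4g by 0.26 and 0.25, and Sema5b by 0.26 and 0.40. Sema4d, a ligand of plexin B1, fell by 0.25 and 0.24, but neither call passed without the filter. The first was also lost without control siRNA replicate 2 or Cugbp1 siRNA replicate 2 or 3 (adjusted p = 0.0514 to 0.0854), and the second without control siRNA replicate 1 or 2 or Mbnl1 siRNA replicate 3 (0.0502 to 0.102). Sema4f lost its call after Cugbp1 siRNA without the filter. Plxnb1 itself was at -0.03 and 0.03.

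Of the 9 plexins, 1 was higher and 2 lower after Cugbp1 siRNA, and 1 higher and 1 lower after Mbnl1 siRNA. That is 33.3% and 22.2%, against 38.7% and 41.5% of all genes. None differed between the siRNAs (limma, 9 tested), against 9.34% of all genes. Plxna2, a receptor for Sema6a, rose by 0.17 (adjusted p = 0.0177) and 0.21 (adjusted p = 0.0051), the first of which did not pass with gene values centred or without control siRNA replicate 1, control siRNA replicate 3 or Cugbp1 siRNA replicate 3 (adjusted p = 0.0559 to 0.0623). Plxnb3 read 8.64, 8.60 and 8.59 on the controls, 8.28, 8.24 and 8.16 after Cugbp1 siRNA, and 8.23, 8.36 and 8.19 after Mbnl1 siRNA. All siRNA arrays were below the controls, by -0.38 (adjusted p = 0.000874) and -0.35 (adjusted p = 0.000872), but 12 of its 51 probe sets were kept, and without the filter the second value did not pass. Plxna4 fell by 0.13 after Cugbp1 siRNA, a call lost without control siRNA replicate 1 or 3, Cugbp1 siRNA replicate 2 or 3, or Mbnl1 siRNA replicate 1 or 3 (adjusted p = 0.0504 to 0.119).

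Plxna1, Plxnb2 and Plxnd1, with nearly all probe sets above the filter, did not pass. Plxna1 was at 0.04 (95% interval -0.06 to 0.13) and -0.04 (-0.14 to 0.06), and Plxnb2 at 0.07 (-0.02 to 0.16) and 0.05 (-0.04 to 0.14). Plxnd1, the receptor of Sema3e, was at 0.10 (0.01 to 0.19, adjusted p = 0.0699) and -0.03 (-0.12 to 0.05).

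Among the Slits, Slit2 was higher while Slit1 and Slit3 were lower after both siRNAs. Slit2 read 8.66, 8.60 and 8.60 on the controls, 8.79, 8.78 and 8.81 after Cugbp1 siRNA, and 9.07, 9.28 and 9.14 after Mbnl1 siRNA. The 3 groups did not overlap. Slit2 rose by 0.54 after Mbnl1 siRNA (SE 0.05, adjusted p = 8.87e-05) and by 0.17 after Cugbp1 siRNA (adjusted p = 0.0313), and the siRNAs differed by -0.37 (-0.49 to -0.25, adjusted p = 0.00267). The change after Cugbp1 siRNA did not pass in 12 of the 21 other settings, among them those without control siRNA replicate 2 or 3 or any of the Cugbp1 siRNA arrays (adjusted p = 0.0503 to 0.0823). Slit1 fell by 0.27 and 0.20 and Slit3 by 0.27 and 0.29. They had 10 and 9 of their probe sets above the filter, and without it both lost their calls after Cugbp1 siRNA and Slit1 also after Mbnl1 siRNA. That last call was lost too without control siRNA replicate 1 or 3 or Mbnl1 siRNA replicate 2 or 3 (adjusted p = 0.066 to 0.0898).

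Robo1, the main Slit receptor of many migrating cells, read 9.28, 9.19 and 9.17 on the controls, 9.66, 9.74 and 9.74 after Cugbp1 siRNA, and 9.60, 9.60 and 9.62 after Mbnl1 siRNA. All 6 siRNA arrays were above the controls. It rose by 0.50 (SE 0.04, adjusted p = 0.000104) and 0.39 (SE 0.04, adjusted p = 0.000197), and the difference between the siRNAs, 0.11 (0.01 to 0.21), did not pass (adjusted p = 0.164). Robo2 read 7.85, 7.94 and 7.85 on the controls, 7.87, 8.06 and 8.20 after Cugbp1 siRNA, and 8.28, 8.26 and 8.40 after Mbnl1 siRNA. Its Cugbp1 siRNA arrays overlapped the controls and its Mbnl1 siRNA arrays lay above both. Robo2 rose by 0.43 after Mbnl1 siRNA (SE 0.08, adjusted p = 0.00195) and was at 0.17 after Cugbp1 siRNA (adjusted p = 0.11), with a difference of -0.26 (adjusted p = 0.0603). Robo3, which acts in commissural axons, and Robo4, an endothelial member, did not pass, with 4 and 8 probe sets kept. With all its probe sets Robo4 passed after Mbnl1 siRNA, at -0.20 (adjusted p = 0.0213).

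Of the 7 ephrins tested, 4 were higher and none lower after each siRNA. That is 57.1% in both, against 38.7% and 41.5% of all genes, with 26.0% and 26.9% of all genes higher. Efna5, a lipid-anchored ligand of EphA receptors, read 8.36, 8.31 and 8.28 on the controls, 8.57, 8.59 and 8.65 after Cugbp1 siRNA, and 8.84, 8.81 and 8.88 after Mbnl1 siRNA. The 3 groups did not overlap. The changes were 0.29 (SE 0.04, adjusted p = 0.00122) and 0.53 (SE 0.04, adjusted p = 3.35e-05), with a difference of -0.24 (-0.34 to -0.14, adjusted p = 0.00803). The transmembrane ligand Efnb2 read 8.69, 8.72 and 8.74 on the controls, 8.90, 8.89 and 8.93 after Cugbp1 siRNA, and 9.11, 9.01 and 9.08 after Mbnl1 siRNA. Its groups did not overlap either, with changes of 0.19 (adjusted p = 0.00704) and 0.35 (adjusted p = 0.000234). Their difference, -0.16 (adjusted p = 0.036), did not pass in 12 of 21 other settings, which include all that left out 1 array except Mbnl1 siRNA replicate 2 (adjusted p = 0.0503 to 0.134).

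Efna1 rose by 0.30 and 0.34 and Efna4 by 0.24 and 0.28. Of the 7 kept Efna4 probe sets, 4 were higher and 3 lower after each siRNA. Its rise after Mbnl1 siRNA did not pass with the mean of probe sets. Its rise after Cugbp1 siRNA did not pass when genes with 1 kept probe set were included. Efna1 after Cugbp1 siRNA did not pass without control siRNA replicate 3 or without Cugbp1 siRNA replicate 3 (adjusted p = 0.0592 and 0.0594). Efna4 lost both calls under the stricter filter, the first also without control siRNA replicate 1 or 2 or Cugbp1 siRNA replicate 3 (0.0678 to 0.0963) and the second without Mbnl1 siRNA replicate 3 (0.0534). With gene values centred on each array, Efna4 and Efnb2 were no longer called after Cugbp1 siRNA. Efnb1 was at -0.05 and -0.04, Efna3 at 0.13 and 0.12, and Efnb3 at -0.13 in both. Without the filter Efna3 (0.24, adjusted p = 0.0408) and Efnb3 (-0.25, adjusted p = 0.0314) passed after Mbnl1 siRNA.

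The Eph receptors moved in different directions. Epha4, which binds ephrins of both classes and is known in motor axons, read 8.27, 8.30 and 8.23 on the controls, 8.15, 8.27 and 8.27 after Cugbp1 siRNA, and 8.45, 8.52 and 8.49 after Mbnl1 siRNA. The Mbnl1 siRNA arrays lay above all others. It rose by 0.22 after Mbnl1 siRNA (SE 0.05, adjusted p = 0.00522), was at -0.04 after Cugbp1 siRNA, and differed between the siRNAs by -0.26 (-0.36 to -0.15, adjusted p = 0.00798). Epha2 read 10.72, 10.78 and 10.67 on the controls, 10.64, 10.76 and 10.83 after Cugbp1 siRNA, and 10.47, 10.54 and 10.54 after Mbnl1 siRNA. Here the Mbnl1 siRNA arrays lay below the other 6. Epha2 fell by 0.21 after Mbnl1 siRNA (adjusted p = 0.0145, and 0.054 without Mbnl1 siRNA replicate 1), and the siRNAs differed by 0.23 (0.10 to 0.35, adjusted p = 0.031). That difference did not pass without Cugbp1 siRNA replicate 2 or 3 or any of the Mbnl1 siRNA arrays (adjusted p = 0.0754 to 0.111).

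Ephb6, a receptor without kinase activity, rose by 0.34 after Mbnl1 siRNA (adjusted p = 0.000583) and was at 0.11 after Cugbp1 siRNA (adjusted p = 0.0799), a difference of -0.22 (adjusted p = 0.0169). That difference passed neither under the stricter filter nor without the filter. Ephb3, a receptor of B-type ephrins, rose by 0.20 after Cugbp1 siRNA (adjusted p = 0.00819) and was at -0.01 after Mbnl1 siRNA, a difference of 0.22 (adjusted p = 0.0179). Ephb3's rise did not pass without the filter or with gene values centred. Without Cugbp1 siRNA replicate 2 or Mbnl1 siRNA replicate 3 neither of these differences passed, nor that of Ephb6 without Mbnl1 siRNA replicate 2 or that of Ephb3 without Mbnl1 siRNA replicate 1 (adjusted p = 0.0564 to 0.0732). Ephb4 did not pass in any comparison. Nor did Ephb2 on its 14 kept probe sets, but with all 25 it was at 0.22 after Cugbp1 siRNA (adjusted p = 0.0146) and differed between the siRNAs by 0.22 (adjusted p = 0.0397), both of which passed.

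The remaining Eph calls rest mostly on few probe sets. Epha10 fell by 0.25 and 0.27, with 13 of 24 probe sets kept. Epha7 rose by 0.37 and 0.20 with 6 of 27 kept, and neither value passed under the stricter filter. The second was also lost with gene values centred and without control siRNA replicate 3 or Mbnl1 siRNA replicate 3 (adjusted p = 0.0715 and 0.0595). Ephb1 fell by 0.30 and 0.49 with 4 of 25 kept, and the first did not pass without the filter, nor without control siRNA replicate 2 or 3 or Cugbp1 siRNA replicate 2 or 3 (adjusted p = 0.0852 to 0.113). Epha6 fell by 0.52 and 0.59 with 3 of 35 kept, and was at -0.04 and -0.08 when all its probe sets were used, which did not pass.

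The direction of a call moved with the share of a gene's probe sets above the filter, a split at 50% chosen after the values were seen. Of the 34 guidance genes at or above 50%, 12 were higher and 4 lower after Cugbp1 siRNA, and 17 higher and 3 lower after Mbnl1 siRNA, with median log2 changes of 0.11 and 0.18. Of the 23 below 50%, 1 was higher and 11 lower after Cugbp1 siRNA, and 1 higher and 10 lower after Mbnl1 siRNA, with medians of -0.17 and -0.19. All 11 differences between the siRNAs were in the first set. All tested genes showed the same split of directions. Of 9435 at or above 50%, 3014 were higher and 481 lower after Cugbp1 siRNA, and 3064 and 660 after Mbnl1 siRNA. Of 3211 below it, 279 were higher and 1119 lower, and 333 and 1188. Between the siRNAs 11.2% of the first and 3.99% of the second were called. Over all tested genes the medians were 0.09 and 0.08 at or above 50% and -0.14 and -0.15 below it. A further 179 probe sets above the filter belong to 136 genes of smell and taste receptors, defensins and hair keratin-associated proteins, and their median changes were -0.19 and -0.17. The part of weak signal in the falls was not tested.

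**Figure D3:**
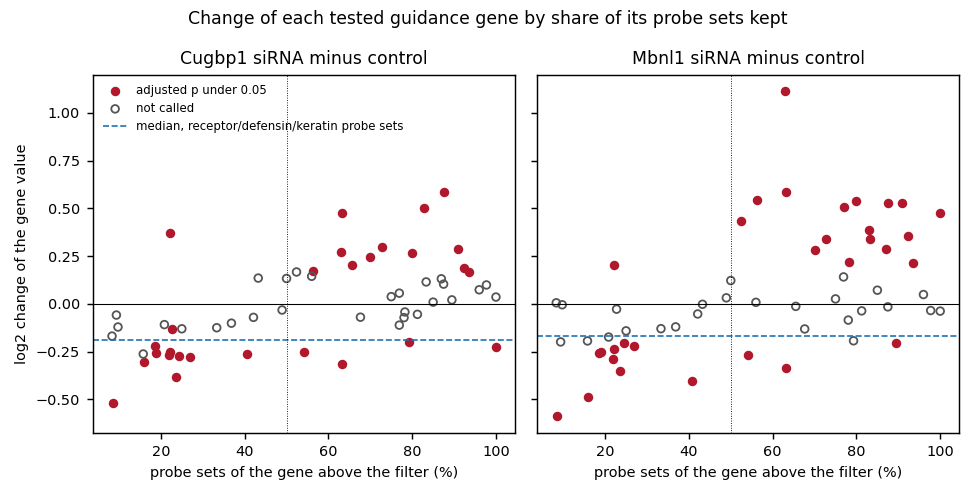
Log2 change of each of the 57 guidance genes against the percentage of its probe sets above the filter, with called genes filled; the dashed line is the median of 179 probe sets of smell and taste receptors, defensins and keratin-associated proteins. Below 50% (dotted line) 1 gene was called higher in each panel, Epha7.

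Markers of other cell types moved as follows. Calls cover the tested markers. Over all tested genes 26.0% were called higher and 12.7% lower after Cugbp1 siRNA, and 26.9% and 14.6% after Mbnl1 siRNA. Of the 3211 genes with under 50% of their probe sets above the filter, 1119 and 1188 were lower. The sums are linear gene values from all probe sets, without the filter, over every measured marker. That was 7 endothelial, 9 neural, 7 epithelial, 6 haematopoietic and 10 myoblast genes. Of 4 endothelial markers tested, 3 were lower after each siRNA, and all 4 had under 50% of their probe sets above the filter. Endothelial sums were 324 to 331 on controls, 282 to 297 after Cugbp1 siRNA and 287 to 301 after Mbnl1 siRNA. Neural markers summed to 689 to 708, 603 to 672 and 645 to 683, with Map2 higher and 2 and 3 of 5 lower. Epithelial markers summed to 766 to 834, 675 to 730 and 756 to 775, with 4 and 2 of 4 lower. Haematopoietic markers summed to 527 to 574, 497 to 537 and 646 to 655, where Cd68 rose by 0.49 after Mbnl1 siRNA and 3 and 2 of 5 were lower. The myoblast markers summed to 13906 to 14172, 14456 to 14817 and 13640 to 15011. Of 9 tested, 3 were higher and 0 lower after Cugbp1 siRNA: Myod1 by 0.30, Cdh15 by 0.32 and Ncam1 by 0.31. After Mbnl1 siRNA 1 was higher, Ncam1 by 0.30, and 1 lower, Myf5 by 0.28. The myoblast calls are 33.3% and 22.2% of the 9 tested, against 38.7% and 41.5% of all genes. The part of all these markers in the guidance genes' changes was not tested.

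Genes that act beside or below these receptors were read from 4 further lists, with 87 of 98 genes tested. After Cugbp1 siRNA 25 were higher and 10 lower, which is 40.2% against 38.7% of all genes, near the overall share. After Mbnl1 siRNA 33 were higher and 12 lower, 51.7% against 41.5%. Between the siRNAs 13 differed (14.9% against 9.34%), 4 higher after Cugbp1 siRNA and 9 after Mbnl1 siRNA, a count that was 7 without Mbnl1 siRNA replicate 1, 8 without replicate 2 and 8 without replicate 3 of that group.

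The adaptors, GEFs and GAPs of guidance receptors gave 12 higher and 1 lower of 34 after Cugbp1 siRNA, and 16 higher and 3 lower after Mbnl1 siRNA. The first is 38.2%, at the share of all genes (38.7%), and the second 55.9% against 41.5%. Vav3, an exchange factor that Eph receptors use, rose by 0.63 and 0.60, Arhgap39, a GAP that binds Robo, by 0.39 in both, and Tiam1, an exchange factor for Rac, by 0.36 and 0.31. Arhgef15, an exchange factor of Eph receptors, fell by 0.42 and 0.45, neither of which passed without the filter. Fyn, a kinase of the Src family, rose by 0.38 after Mbnl1 siRNA and was at 0.05 after Cugbp1 siRNA, a difference of -0.33 (adjusted p = 0.015, and 0.0587 and 0.0602 without Mbnl1 siRNA replicates 1 and 3).

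Rnd3, a small GTPase that stays bound to GTP, rose by 0.70 after Cugbp1 siRNA and by 0.54 after Mbnl1 siRNA. Rnd2 rose by 0.20 after Cugbp1 siRNA and fell by 0.22 after Mbnl1 siRNA (difference 0.43, adjusted p = 0.00058). With gene values centred its rise was 0.12 and did not pass (adjusted p = 0.1), while the fall and the difference did. Rras, a GTPase that plexins switch off, fell by 0.19 and rose by 0.19 in that order (difference -0.38, adjusted p = 0.0036). The fall of Rras was lost without control siRNA replicate 1 or 3 or Cugbp1 siRNA replicate 2 or 3 (adjusted p = 0.0624 to 0.105), and its rise without control siRNA replicate 1 or 2 or Mbnl1 siRNA replicate 1 or 2 (0.0655 to 0.0918). The fall did not pass either with arrays centred or without the filter, nor the rise with gene values centred. The kinase gene Pak2 fell by 0.26 after Cugbp1 siRNA and was at 0.03 after Mbnl1 siRNA.

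Co-receptors and sheddases gave 1 higher and 1 lower of 10 after Cugbp1 siRNA and 4 higher and 1 lower after Mbnl1 siRNA, which is 20% and 50% against 38.7% and 41.5% of all genes. Mmp14, a membrane metalloprotease, rose by 0.17 and 0.49 (difference -0.32, adjusted p = 0.0029), the first lost with gene values centred and without control siRNA replicate 1 or 2 or Cugbp1 siRNA replicate 2 (the latter at adjusted p = 0.0535 to 0.072), and L1cam, an adhesion partner of Nrp1, fell by 0.25 and 0.30. Of 13 genes of the netrin and RGM system, 2 were higher and 4 lower after Cugbp1 siRNA, and 1 higher and 6 lower after Mbnl1 siRNA, or 46.2% and 53.8% against the same shares. The netrin receptor gene Unc5b rose by 0.41 and 0.33, while Draxin, a secreted repellent, fell by 0.51 and 0.50.

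Single probe sets were then compared with their own gene on the same array, for 908 guidance probe sets of 52 genes. Such a test shows an unequal change of signal among the probe sets of a gene, and whether its transcripts changed in structure was not tested. The test does not name the exon, because probe sets were not placed on the genome. After Cugbp1 siRNA 35 probe sets of 23 genes were called, 9 higher and 26 lower, which is 3.85% against 3.75% of all probe sets. After Mbnl1 siRNA 62 of 31 genes were called, 23 higher and 39 lower, 6.83% against 6.98%. The siRNAs were not called apart at any guidance probe set (0 of 908 in limma, against 0.0277% of all, with 70 at an unadjusted p under 0.05 and 3 called by diffSplice).

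These counts hung on single arrays. The 35 became 16 without control siRNA replicate 3, 15 without Cugbp1 siRNA replicate 2 and 12 without Cugbp1 siRNA replicate 3. The 62 became 39 and 32 without control siRNA replicates 2 and 3, and 31, 28 and 22 without Mbnl1 siRNA replicates 1, 2 and 3.

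Robo1 held the probe set with the largest departure after Cugbp1 siRNA. Probe set 5157775 read 10.74, 10.73 and 11.02 on the controls, 10.16, 10.09 and 9.96 after Cugbp1 siRNA, and 10.25, 10.03 and 10.25 after Mbnl1 siRNA (log2 intensity). It was lower on all siRNA arrays while 33 of the 34 kept Robo1 probe sets were higher after each siRNA. Its own change was -0.76 and -0.66, and relative to the gene -1.26 (SE 0.11, adjusted p = 0.00111) and -1.04 (SE 0.11, adjusted p = 0.00125).

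In Nrp1, probe set 4312235 read 11.42, 11.70 and 11.76 on the controls, 11.59, 11.48 and 11.39 after Cugbp1 siRNA, and 11.35, 11.35 and 11.33 after Mbnl1 siRNA. The Mbnl1 siRNA arrays were below all controls, while 22 of the 24 Nrp1 probe sets were higher in mean. Relative to the gene it changed by -0.61 (adjusted p = 0.0113) and -0.87 (adjusted p = 0.00171). After Mbnl1 siRNA, Nrp1, Robo1 and also Slit2, given next, each held a probe set below its control arrays in a gene that was higher.

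Slit2 had 7 of 36 probe sets called after Mbnl1 siRNA, 3 higher and 4 lower, where 6.98% of all probe sets were called. Among the higher ones, the call of 5286106 was lost in 6 of the fits that left out 1 array (adjusted p = 0.0594 to 0.151). That of 4699439 was lost in 1 (0.0666). Probe set 4574286 read 11.05, 11.02 and 11.00 on the controls, 10.82, 10.75 and 10.79 after Cugbp1 siRNA, and 10.76, 10.89 and 10.60 after Mbnl1 siRNA. All siRNA arrays were below the controls, with a change relative to the gene of -0.41 (adjusted p = 0.00965) and -0.82 (adjusted p = 0.000411). The first was not called by diffSplice. In total 24 of the 908 guidance probe sets were called after both siRNAs, each in the same direction in both. The matching share of all probe sets is not given here. Other departures shared by both comparisons were, among others, in Sema4c (5016170, -0.75 and -1.03), Ephb2 (5120926, -0.77 and -0.63), Sema6d (5546639, 0.88 and 0.79), Sema3e (5589268, 0.67 and 0.74) and Sema7a (5123275, 0.78 and 0.89). Of these, Sema7a after Cugbp1 siRNA was lost without any of 8 arrays (all but control siRNA replicate 1, adjusted p = 0.0528 to 0.109) and after Mbnl1 siRNA without control or Mbnl1 siRNA replicate 3 (0.0533 to 0.0705). After Cugbp1 siRNA, Sema4c was lost without any of the control arrays or Cugbp1 siRNA replicate 1 or 3 (0.0548 to 0.0928), and Sema3e without Cugbp1 siRNA replicate 3 (0.0521). After Mbnl1 siRNA the largest value was that of Ephb6 probe set 5204085 (1.36, adjusted p = 0.0263). Its control arrays spread from 5.64 to 7.08 and so reached below the filter, which lies at 6.997 on the log2 scale. The filter used the mean over all arrays, and the mean of the control arrays lay below it. This probe set therefore entered only through the Cugbp1 and Mbnl1 siRNA arrays, so its value is not independent of its entry. The part of that selection in its value was not tested. Its call was lost without control siRNA replicate 3 or any Mbnl1 siRNA array (0.0528 to 0.0898).

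**Figure D4:**
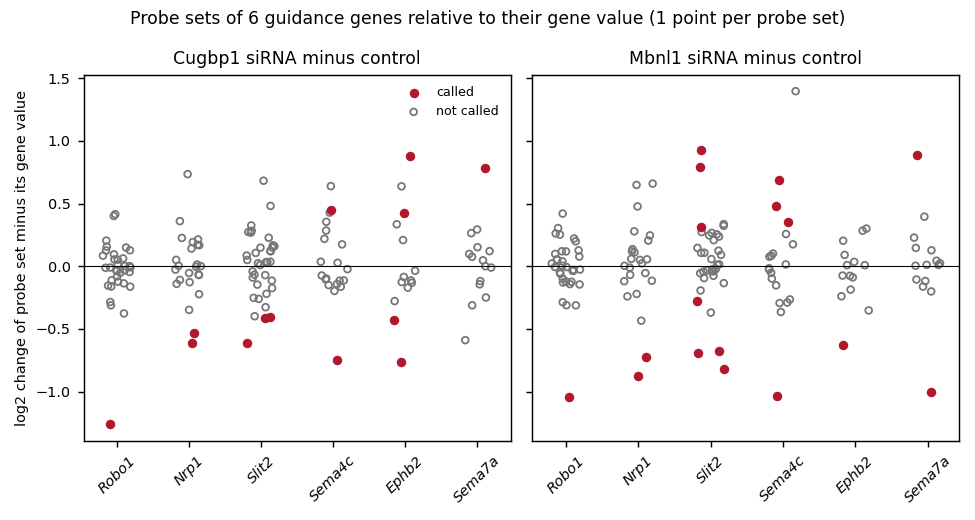
Log2 change of each kept probe set minus that of its gene value, for 6 guidance genes; filled points passed the test and horizontal scatter within a gene carries no meaning. Robo1 has 1 filled point in each panel, at -1.26 and -1.04, far below its other probe sets.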

How the data were processed

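Total RNA of C2C12 cells (100 ng per array, 48 h after siRNA, per the labels' protocols) was measured on 9 exon arrays. The authors deposited linear intensity values of 1195555 probe sets, made with RMA (Affymetrix Expression Console, build mm9), per the submitters' processing notes. Tool versions: not given in the sources used here. RMA fits each probe set over all arrays and normalises between them, which compresses small and weak changes. Groups and replicate numbers came from the titles. Precision is limited by the number of arrays.

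Values were log2-transformed. The platform annotation gave 1 symbol to 316997 probe sets and several to 6571, and 871987 were not listed. The unlisted and those with several symbols were not used, which set aside 28 probe sets shared by Nrp2 and Pard3b and 3 shared by Ephb6 and Mon2. Of 22264 symbols, 17988 were current in a RefSeq table (GRCm38.p6), 4213 were updated through synonyms and 63 kept. Probe sets at or above the 75th percentile of the mean over all arrays were kept, genes with at least 3 were summarised by median polish, and 12646 genes were fitted in limma 3.58.1 (R 4.3.3) with 1 coefficient per group, all 9 arrays in the same fit, eBayes and Benjamini-Hochberg adjustment, calls being an adjusted p under 0.05. Exon usage was each probe set's log2 value less that of its gene, fitted in limma with a trend for genes with at least 4 kept probe sets (158713 probe sets). Both steps were tested on simulated data. Figures used matplotlib 3.10.9.

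The guidance genes and all lists were chosen with earlier results of these data known. Called guidance genes were named, at most 30 per comparison by size, uncalled ones where a family is small or a ligand and receptor pair up, and at most 4 called genes per further list. The separate count of 1 further list is not reported here. At most 15 called probe sets per comparison were eligible to be named. Whether replicate numbers pair the arrays was checked: deviations from group means correlated between -0.10 and 0.12 for the 9 same-numbered pairs and between -0.13 and 0.09 for 18 others, so the numbers were taken not to pair them. Alternatives covered scaling, filter, summary, offset, variance model, arrays in the fit, replicate block, test of exon usage and leaving out each array.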

Additional observations from a re-analysis of the deposited data

Results flagged for a closer look

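Sema7a and Epha4 had every Cugbp1 siRNA array on one side of the control mean and every Mbnl1 siRNA array on the other. The difference itself was tested in limma with Benjamini-Hochberg adjustment: Cugbp1 minus Mbnl1 siRNA was -0.70 for Sema7a (adjusted p = 9.24e-05) and -0.26 for Epha4 (adjusted p = 0.00798), on the log2 scale with 3 arrays per group. For Epha4 the Cugbp1 siRNA arrays overlapped the controls.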

How the results depend on the processing

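Of 74 called values (the guidance genes with Celf1 and Mbnl1), 43 passed in all settings that recorded the gene and 55 whenever 1 array was left out. A gene that the stricter filter left out was not counted as lost there. The setting that needed 50% of probe sets above the filter recorded no single genes and is not in these counts. Some settings were chosen after seeing the data: the scalings on gene values and on probe sets above the filter, and the test of genes with at least 50% of their probe sets kept. Guidance genes called between the siRNAs were 7 without the filter, against 11. After Cugbp1 siRNA 16 were called when genes needed 50% of their probe sets above the filter, against 28, with 34 guidance genes left to test. In the main fit these 34 genes also gave 16 calls, and the other 12 calls were in the 23 genes left out. Without the filter Plxna4 (0.18) and Sema6d (0.20) after Mbnl1 siRNA turned sign. The test diffSplice called 68 guidance probe sets after Cugbp1 siRNA, against 35, and 3 between the siRNAs, and the stricter filter 1, against 0. The cause of the other shifts was not tested. Leaving out 1 array gave 22 to 28, 26 to 35 and 7 to 12 guidance genes (Cugbp1 siRNA, Mbnl1 siRNA, between), 25 to 43, 35 to 48 and 7 to 12 genes of the further lists, and 12 to 41, 22 to 66 and 0 to 0 probe sets. With the replicate number as a block the counts were 26, 32 and 10 guidance genes, 32, 43 and 10 further genes, and 30, 52 and 0 probe sets. The filter on mean intensity set which probe sets entered, 927 of 1723, and without it the falls of Epha6, Sema3g, Sema4d and Slit1 did not pass.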
